A study of Mus musculus with 6 samples.

Results

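The genes described here are 8 transcription factors of the Ets and interferon regulatory factor (IRF) families, measured in developing B cells of mice with mutations in Ikaros. They were chosen by symbol from 22098 in the table: Sfpi1 (which encodes PU.1), Spib, Ets1, Erg, Fli1 and Elf1 of the Ets family, and Irf4 and Irf8 of the IRF family. A symbol with several transcripts was represented by the one with the highest mean, and all 8 passed the minimum mean of 1 RPKM (reads per transcript length and library size) that left 10943 genes. RNA was sequenced from proB cells sorted from the bone marrow of C57BL/6 mice aged 6 to 7 weeks, at Hardy fraction B and at the pooled fractions C and C' (fraction C below). The genotypes were wild type (wt), Ikaros_ZnF1-/- (the ZnF1 mutant) and Ikaros_ZnF4-/- (the ZnF4 mutant), mutant in zinc finger 1 or zinc finger 4 of the DNA-binding domain of Ikaros. Each of the 3 genotypes gave 1 library per fraction, so no difference between 2 libraries can be checked against replicates, and the labels do not say how many animals a library holds.

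Ets factors bind DNA at a short core with the letters GGAA through a conserved domain, and most are expressed in many blood lineages. PU.1 and its close relative Spi-B also recruit IRF4 or IRF8, which bind poorly alone, to joint Ets-IRF elements in immunoglobulin light chain enhancers and other B-cell genes. At the proB and preB stages these factors are known for their parts in light chain gene opening, in the exit from the cell cycle and in shutting down the surrogate light chain, while Erg and Fli1 are known from stem and progenitor cells. Ikaros itself binds sites with the core TGGGAA, which overlaps the letters of an Ets site.

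The promoters of Spib, Irf4 and Erg, the 3 members at least 2-fold apart between the mutants in both fractions, are shown so that their letters can be set beside the values that follow. RefSeq promoter windows (build GRCm38.p6, 250 bases before to 50 after a start) matched 5 of the 8 members, with 9 windows in all. The sequences run 5′ to 3′ on the gene's strand, and capitals mark the Ikaros core TGGGAA or the Ets core GGAAG on either strand (written TTCCCA or CTTCC where the match lies on the opposite strand). The windows are chr7:44532022-44532321, minus strand, for Spib, chr13:30748983-30749282, plus strand, for Irf4 and chr16:95459299-95459598, minus strand, 1 of 3 windows of Erg.
Spib: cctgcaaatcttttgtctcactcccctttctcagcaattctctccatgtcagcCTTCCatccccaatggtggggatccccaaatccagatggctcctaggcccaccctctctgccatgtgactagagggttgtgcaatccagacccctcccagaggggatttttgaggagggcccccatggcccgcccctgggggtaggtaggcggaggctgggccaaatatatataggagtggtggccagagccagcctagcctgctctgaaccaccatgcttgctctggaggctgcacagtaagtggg
Irf4: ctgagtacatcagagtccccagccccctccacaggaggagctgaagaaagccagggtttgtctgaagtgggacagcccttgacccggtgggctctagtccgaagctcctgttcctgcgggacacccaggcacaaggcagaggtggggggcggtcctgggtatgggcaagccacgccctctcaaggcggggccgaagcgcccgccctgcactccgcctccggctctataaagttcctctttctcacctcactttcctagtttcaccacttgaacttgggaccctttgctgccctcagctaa
Erg: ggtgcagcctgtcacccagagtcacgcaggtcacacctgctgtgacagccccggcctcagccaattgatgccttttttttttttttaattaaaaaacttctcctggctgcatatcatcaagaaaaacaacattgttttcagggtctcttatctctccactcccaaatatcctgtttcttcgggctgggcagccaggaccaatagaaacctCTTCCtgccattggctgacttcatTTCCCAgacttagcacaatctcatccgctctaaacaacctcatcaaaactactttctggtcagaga
The Spib window held 1 Ets core, 197 bases before the start. The Erg window printed held an Ets core 40 bases and an Ikaros core 16 bases before the start. The other Erg windows held no Ikaros core and 1 further Ets core between them. The Irf4 window held neither TGGGAA nor GGAAG, though the shorter GGAA lies on its opposite strand (written TTCC). Of the windows not printed, both of Irf8 also held an Ikaros core, 242 bases before the start in 1 and 36 bases after it in the other. Those of Elf1 held no Ikaros core. The Ets-IRF composite element (GGAA, any 2 bases, then GAAA) and the interferon-stimulated response element (GAAA, any 2 bases, then GAAA), also searched on both strands, matched none of the 3 windows printed. Of 32851 promoter windows of this length, 71.4% held GGAAG, 25.6% held TGGGAA, 2.72% held the composite element and 3.44% the interferon-stimulated one. A TGGGAA followed by G also holds GGAAG. The matches are a description of letters, not of binding.

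Spib, Irf4 and Erg separated the ZnF4 mutant from the other genotypes in both fractions, in different directions. The share of all genes that did so was not counted, so this does not set these factors apart. Spib and Irf4 were at their highest in both ZnF4 libraries and at their lowest in the ZnF1 libraries of each fraction, and Erg was at its lowest in both ZnF4 libraries. Sfpi1 stood out in 1 library, fraction C of the ZnF1 mutant. Ets1, Fli1, Elf1 and Irf8 varied least, with 1.58-fold, 1.74-fold, 1.59-fold and 1.72-fold between their highest and lowest libraries. For Sfpi1, Spib, Erg and Irf4 that range was 3.80-fold, 6.00-fold, 29.6-fold and 4.04-fold. Folds throughout are on the scale of log2(RPKM + 1), which understates the change of low genes.

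**Figure D1:**
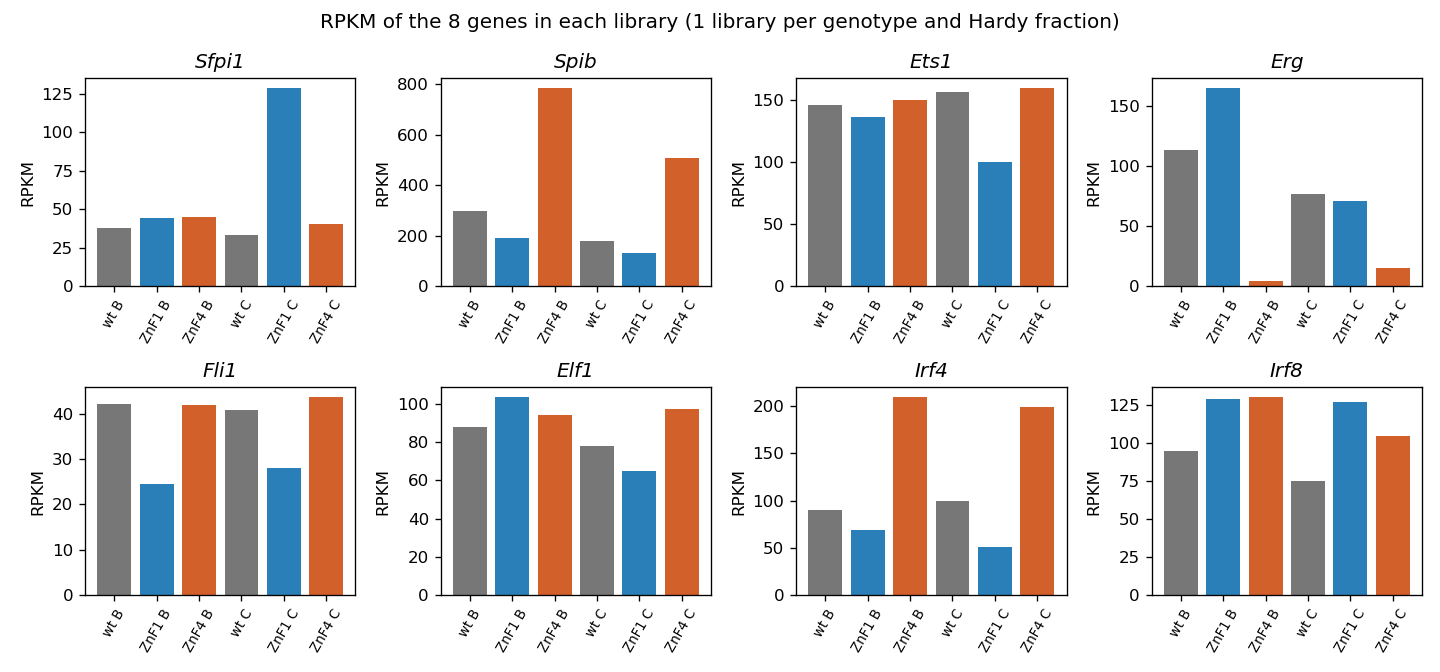
RPKM of the 8 genes in the 6 libraries, 1 value per library, by genotype and fraction. Spib is the highest of the 8 in every library, and Erg is the lowest of the 8 in both ZnF4 libraries, at 4.6 and 15.1 RPKM.

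The libraries differ in ways other than the mutated finger. Xist was at 81.3 and 91.9 RPKM in the wt libraries and listed at 0 in all 4 mutant libraries, while the Y-linked Eif2s3y was listed at 0 in the wt and at 34.4 to 55.1 in the mutants, so sex and genotype cannot be told apart in comparisons with wt. The mutants do not differ in these genes in that way. The summed RPKM of 16 granulocyte and monocyte markers was 43549.7 in ZnF1 fraction C and 1034.4 to 3857.6 in the other libraries. Erythroid markers (10 genes) summed to 4257.7 there and 124.7 to 323.7 elsewhere. In ZnF1 fraction C against wt, all 16 and all 10 of these genes were at least 2-fold higher. In ZnF4 against wt, 15 of the 16 and 8 of the 10 were at least 2-fold lower in the fraction B libraries, and 4 of 16 and 2 of 10 in fraction C. The 16 B-lineage markers, which include Pax5 and Ebf1, summed to 2811.3 in that library and to 3755.8 to 6316.8 in the others. When libraries were rescaled by the median of these B-lineage markers, the median log2 difference of all genes moved from 0.04 to -0.39 for ZnF1 against wt in fraction B and from -0.16 to 0.29 in fraction C. For ZnF4 against wt it moved from -0.09 to -0.44 and from -0.05 to -0.38, and for C against B in the ZnF1 mutant from -0.16 to 0.80. In bulk RNA, fewer cells of a type and less RNA per cell cannot be told apart.

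Among the 10943 genes, 3.7% exceeded wt by 2-fold or more in the ZnF4 library of fraction B and 9.81% were below it by as much. Of the 8 factors, Spib and Irf4 were higher and Erg lower by that measure. The part of the lower myeloid and erythroid markers of that library in these values was not tested. In fraction C the shares of all genes were 3.55% and 6.12%, and among the factors Spib was higher and Erg lower, with Irf4 just short at 1.98-fold. The median log2 difference of the 8 factors was 0.16 against -0.09 for all genes in fraction B, and 0.30 against -0.05 in fraction C. In both fractions together 2.59% of genes were 2-fold higher and 4.73% lower. The limma model over both fractions called 3 genes for ZnF4 against wt (0.0274% of those tested, 0.00914% higher and 0.0183% lower), none of them a member. At an unadjusted p under 0.05 limma placed 7.9% of genes higher and 9.74% lower, Spib and Irf4 among the former and Erg among the latter.

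For ZnF1 against wt in fraction B, 2.07% of genes were 2-fold higher and 2.21% lower, and none of the 8 factors was past 2-fold. In fraction C, 12.6% were higher and 7.39% lower, and among the factors Sfpi1 was higher and none was lower. The factors' median log2 difference was 0.05 against 0.04 for all genes in fraction B and -0.36 against -0.16 in fraction C. In both fractions together 0.758% of genes were higher and 0.804% lower, with no member among them. Limma called 3 genes here too (0.0274%, with 0.00914% higher and 0.0183% lower), again no member. At an unadjusted p under 0.05 it placed 4.99% of genes higher, with Irf8, and 4.31% lower, with Fli1 and Irf4.

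The direct comparison of the mutants separated them further. In ZnF4 against ZnF1, 4.95% of genes were 2-fold higher and 10.9% lower in fraction B, and Spib and Irf4 were among the higher and Erg among the lower. In fraction C the shares were 7.41% and 14.1%, with Spib and Irf4 again higher, and Erg and Sfpi1 lower. In both fractions together 3.11% were higher and 5.45% lower. Limma called 1.14% of genes higher and 0.676% lower, 1.82% in either direction. Spib and Irf4 were called higher and no member was called lower. At an unadjusted p under 0.05 the shares were 10.4% and 12.3%, with Spib, Irf4 and Fli1 higher and Erg lower. The 3 contrasts share libraries, so their values for a gene are not independent. In these fits the fractions of a genotype stand in for its replicates, so the p-values do not measure a spread between animals.

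Spib encodes Spi-B, an Ets factor of B cells and plasmacytoid dendritic cells that takes over part of PU.1's role as B cells mature. Its level in wt was 297.3 RPKM in fraction B and 179.7 in fraction C. In the ZnF1 mutant it was 191.5 and 130, and in the ZnF4 mutant 784.5 and 507.1. The order was thus ZnF1, wt, ZnF4 in both fractions, and the lowest ZnF4 library lay above the highest of the other genotypes. Between the mutants the difference was 4.08-fold in fraction B and 3.88-fold in fraction C. Spib rose in ZnF4 against ZnF1 by a log2 difference of 1.99 (SE 0.22, adjusted p = 0.0413, limma with Benjamini-Hochberg adjustment), higher in 2 of 2 fractions. The adjusted p was 0.525 without ZnF4 fraction B, 0.399 without ZnF4 fraction C, 0.120 without wt fraction B and 0.124 without wt fraction C (limma), with the same direction in each. Against wt the log2 difference was 1.44 in ZnF4 (SE 0.22, limma adjusted p = 0.114) and -0.55 in ZnF1 (SE 0.22, limma adjusted p = 0.527), and neither passed. In all 3 genotypes Spib was lower in fraction C than in B, by 1.65-fold in wt, 1.47-fold in ZnF1 and 1.55-fold in ZnF4, a difference that did not pass limma (log2 -0.64, SE 0.18, adjusted p = 0.854). Under the B-lineage scaling the ZnF4 difference from ZnF1 was 1.61 on the log2 scale, with an adjusted p of 0.131 in limma. With that scaling the ZnF1 difference from wt was -1.12 in fraction B but 0.02 in fraction C, so the order of ZnF1 and wt in fraction C, like the C against B step in ZnF1 (0.50), depended on it.

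Plasmacytoid dendritic cells also express Spib. Their 7 markers summed to 125.9, 142.3 and 17.6 RPKM in wt, ZnF1 and ZnF4 of fraction B and to 68.4, 156.0 and 18.2 in fraction C. Siglech, a defining marker of these cells, was at 0.1 RPKM in both ZnF4 libraries and at 7.5 to 33.0 in the other 4. The libraries with the most Spib were those with the least of these markers. In the ZnF4 library of each fraction, 6 of the 6 measured markers that passed the minimum were below wt. Their median log2 difference was -2.57 in fraction B and -1.33 in fraction C, against -0.09 and -0.05 for all genes. The part of these cells in the Spib values was not tested.

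PU.1, encoded by Sfpi1, sets the balance of lymphoid and myeloid fates, with high amounts in granulocytes and macrophages and lower amounts in B cells. Sfpi1 was at 38.1, 44.2 and 44.7 RPKM in wt, ZnF1 and ZnF4 of fraction B. In fraction C it was at 33.1, 128.6 and 40.6. The 5 libraries other than ZnF1 fraction C thus lay between 33.1 and 44.7, and that library was 3.80-fold above wt. It is the same library in which the granulocyte and monocyte markers were high, among them the receptor genes Csf3r (90.4 against 1.0 to 7.0 RPKM elsewhere) and Csf1r (45.0 against 1.2 to 6.8). Both are genes that PU.1 is known to activate in myeloid cells. The part of those cells in the Sfpi1 value was not tested. Over both fractions the ZnF1 difference from wt did not pass (log2 1.07, SE 0.49, limma adjusted p = 0.535). The C against B difference of 0.40 (SE 0.40, limma adjusted p = 0.864) became -0.17 when that library was left out. Under the B-lineage scaling the small differences from wt turned, to -0.27 in ZnF1 fraction B, -0.16 in ZnF4 fraction B and -0.08 in ZnF4 fraction C, while ZnF1 fraction C stayed above wt at 2.42.

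The ratio of Spib to Sfpi1 within a library does not depend on how libraries are scaled. It was 7.80 in wt, 4.33 in ZnF1 and 17.6 in ZnF4 of fraction B. In fraction C it was 5.43, 1.01 and 12.5. In every genotype the ratio was lower in fraction C, and the ZnF4 libraries held the highest ratios. The lowest ratio, with near equal amounts, was in ZnF1 fraction C, the library with the highest Sfpi1.

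**Figure D2:**
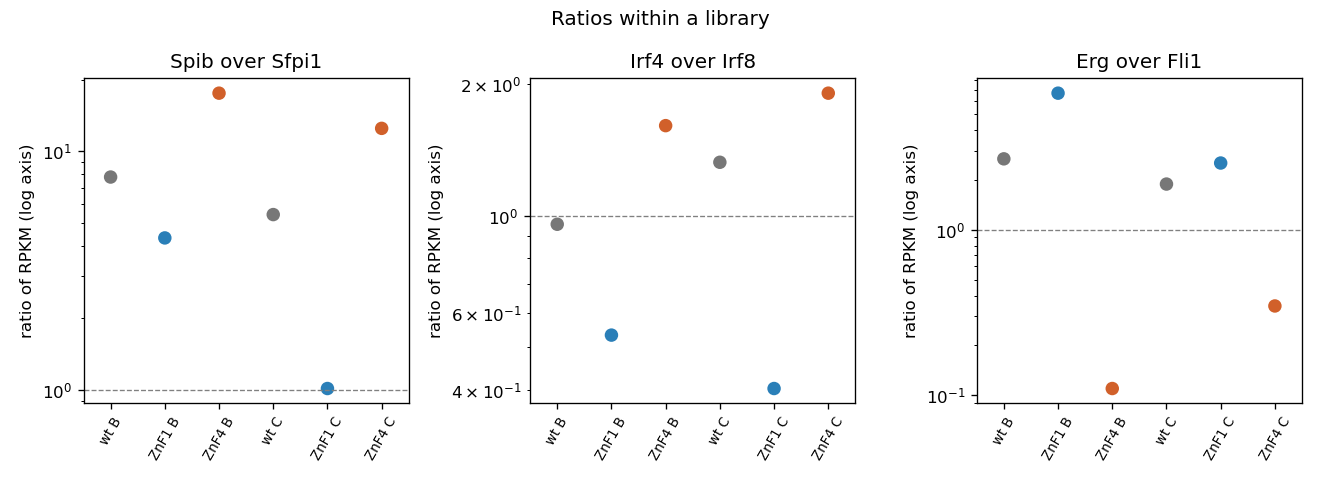
Ratio of RPKM between related factors within each of the 6 libraries (log axis), which scaling between libraries cannot move. The ratios of Spib to Sfpi1 and of Irf4 to Irf8 are highest, and that of Erg to Fli1 lowest, in the ZnF4 libraries.

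Irf4 encodes IRF4, which with IRF8 promotes the preB stage and light chain recombination, and later drives plasma cell formation. Its level in wt was 90.5 RPKM in fraction B and 100 in fraction C. In the ZnF1 mutant it was 68.7 and 51.0, and in the ZnF4 mutant 209.3 and 199.3. As for Spib, the order was ZnF1, wt, ZnF4 in both fractions and the ZnF4 libraries did not overlap the others. Irf4 rose in ZnF4 against ZnF1 by a log2 difference of 1.77 (SE 0.22, adjusted p = 0.0487, limma with Benjamini-Hochberg adjustment), 3.02-fold in fraction B and 3.85-fold in fraction C. The adjusted p was 0.480 without ZnF4 fraction B, 0.375 without ZnF4 fraction C, 0.0859 without wt fraction B and 0.0868 without wt fraction C (limma), again with 1 direction. The difference from wt was 1.09 in ZnF4 (SE 0.22, limma adjusted p = 0.141) and -0.68 in ZnF1 (SE 0.22, limma adjusted p = 0.519). Under the B-lineage scaling the difference between the mutants was 1.39 on the log2 scale (limma adjusted p = 0.105), and the order ZnF1, wt, ZnF4 held in both fractions. The difference from wt in ZnF4 fraction B was then 0.81, under 2-fold. Between fractions Irf4 differed little, at 1.10-fold higher in C for wt, 1.34-fold lower for ZnF1 and 1.05-fold lower for ZnF4.

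Irf8 encodes IRF8, a factor of B cells, dendritic cells and monocytes that shares many sites with IRF4. Its level was 94.6 RPKM in wt, 128.8 in ZnF1 and 130.1 in ZnF4 of fraction B. In fraction C it was 75.4, 126.7 and 104.4. The wt libraries were the lowest in both fractions, and the mutant libraries overlapped each other. The log2 difference from wt was 0.46 in ZnF4 (SE 0.19, limma adjusted p = 0.314) and 0.59 in ZnF1 (SE 0.19, limma adjusted p = 0.519). Under the B-lineage scaling the difference of ZnF1 from wt was -0.05 in fraction B and 1.23 in fraction C, so its direction and size depended on the scaling. Between the mutants the difference was -0.13 (SE 0.19, limma adjusted p = 0.720).

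The balance of the IRF pair differed between the libraries of the genotypes, 1 per fraction. The ratio of Irf4 to Irf8 was 0.957 in wt, 0.533 in ZnF1 and 1.61 in ZnF4 of fraction B. In fraction C it was 1.33, 0.403 and 1.91. Irf4 exceeded Irf8 in both ZnF4 libraries, and Irf8 exceeded Irf4 in both ZnF1 libraries. The lowest ratio was in ZnF1 fraction C, the library with the highest granulocyte and monocyte sum and the highest plasmacytoid dendritic sum. The part of those cells in the Irf8 values and in these ratios was not tested.

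The order ZnF1, wt, ZnF4 in both fractions held for 8.72% of the 10943 genes. Of the 8 factors Spib, Irf4 and Ets1 showed it, Ets1 with small steps. With libraries scaled by B-lineage markers Irf4 kept the order in both fractions and Spib and Ets1 did not. The opposite order held for 7.79% of genes and for none of the factors.

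Erg encodes an Ets factor of stem cells, megakaryocytes and early lymphoid progenitors. Its level in wt was 113.0 RPKM in fraction B and 76.9 in fraction C. In the ZnF1 mutant it was 164.7 and 70.9, and in the ZnF4 mutant 4.6 and 15.1. The ZnF4 libraries were below all others, and the mutants were 29.6-fold apart in fraction B and 4.47-fold apart in fraction C. These differences did not pass limma, with a log2 difference of -3.52 between ZnF4 and ZnF1 (SE 0.69, adjusted p = 0.0829) and -3.31 between ZnF4 and wt (SE 0.69, adjusted p = 0.146). Without ZnF1 fraction B or C the limma adjusted p of the ZnF4 difference from wt was 0.0148 and 0.0129, in fits that called 3372 and 3453 of all 10943 genes. Without wt fraction B or C it was 0.600 and 0.413, and without ZnF4 fraction B or C it was 0.953 and 0.401 (limma), with Erg lower in ZnF4 each time. The SE was the largest of the 8, as the difference was smaller in fraction C than in B. Between fractions Erg was 2.88-fold higher in C in the ZnF4 mutant, but 1.46-fold lower in wt and 2.30-fold lower in ZnF1.

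Markers of other cells differed alongside Erg, and so did some B-lineage markers. Of the 16 B-lineage markers, 5 were below wt and 11 above it in the ZnF4 library of each fraction, Rag1 and Rag2 among the lower. Rag2 was at 44.5, 70.0 and 18.1 RPKM in wt, ZnF1 and ZnF4 of fraction B, then at 29.6, 33.3 and 14.4 in fraction C. The 8 stem and progenitor markers summed to 40.5, 77.6 and 8.5 RPKM in wt, ZnF1 and ZnF4 of fraction B and to 20.5, 68.5 and 13.9 in fraction C. Flt3, a cytokine receptor of early lymphoid progenitors, was at 10.1, 29.5 and 0.4 in fraction B, then at 1.7, 12.2 and 0.4 in fraction C. Mecom, a stem cell gene, was listed at 0 in all 6. Of the 6 progenitor markers that passed the minimum, 6 were below wt in ZnF4 fraction B and 5 in ZnF4 fraction C. Their median log2 difference was -1.75 and -0.72, against -0.09 and -0.05 for all genes. Natural killer markers (9 genes) summed to 88.3, 55.7 and 2.5 in fraction B and to 45.9, 107.9 and 9.5 in fraction C. The 7 megakaryocyte markers, from another lineage that uses Erg, summed to 0.9 to 3.0 RPKM in all libraries but ZnF1 fraction C, where they summed to 43.4. Of the 6 endothelial markers, from another cell type that uses Erg, Eng was at 22.2, 67.3 and 2.9 RPKM in fraction B, then at 23.0, 30.3 and 5.7 in fraction C. Kdr was listed at 0 in both ZnF4 libraries and at 0.8 to 5.4 in the others. Pecam1 was highest in the ZnF4 library of each fraction (77.1 and 56.0), Cdh5 was at 0.7 to 3.7, and Tek, a defining marker, at or below 0.1 in all 6. The endothelial sum was 62.6 to 130.1 and that of 9 T-cell markers 14.0 to 39.8. The part of these cells in the Erg values was not tested.

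**Figure D3:**
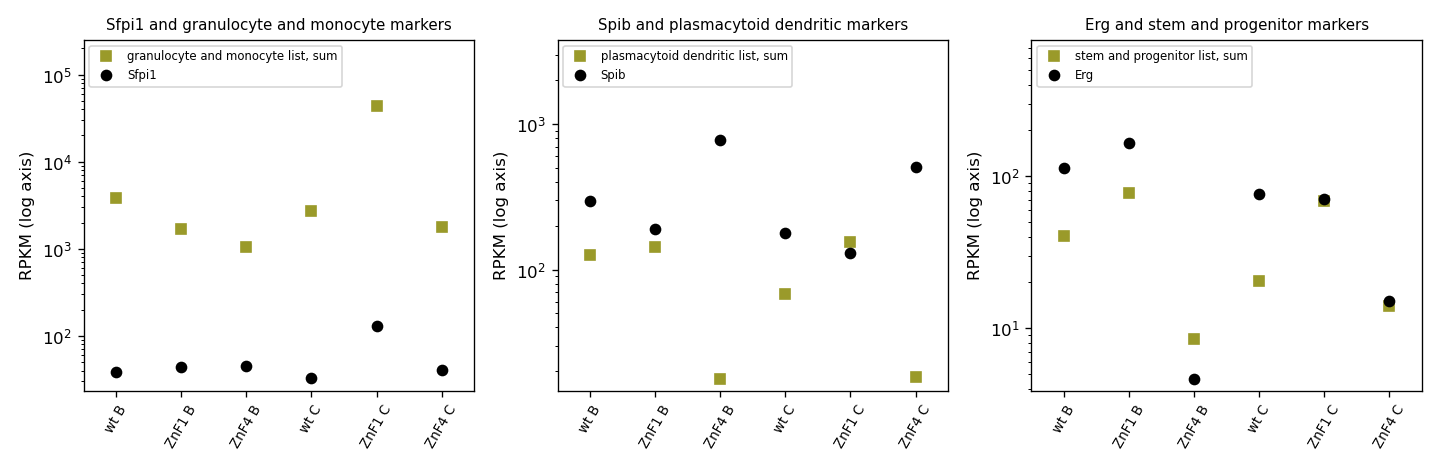
RPKM (log axis) of Sfpi1, Spib and Erg (circles) beside the summed RPKM of granulocyte and monocyte, plasmacytoid dendritic, and stem and progenitor markers (squares) in the 6 libraries. Sfpi1 and the myeloid sum are both highest in ZnF1 fraction C, Spib is highest where the dendritic sum is lowest, and Erg and the progenitor sum are both lowest in the ZnF4 libraries.

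Fli1 encodes the nearest relative of Erg, and its values were ordered differently. Its level was 42.1, 24.6 and 41.9 RPKM in wt, ZnF1 and ZnF4 of fraction B and 40.7, 28.0 and 43.6 in fraction C. Both ZnF1 libraries were below the other 4, by 1.68-fold and 1.44-fold against wt, while ZnF4 and wt were within 1.07-fold of each other. The log2 difference of ZnF1 from wt was -0.64 (SE 0.16, limma adjusted p = 0.461), and that of ZnF4 from ZnF1 was 0.68 (SE 0.16, limma adjusted p = 0.110). Scaled by B-lineage markers, the ZnF1 difference from wt was -1.23 in fraction B and -0.05 in fraction C. The ratio of Erg to Fli1 was 2.68, 6.70 and 0.110 in wt, ZnF1 and ZnF4 of fraction B. In fraction C it was 1.89, 2.53 and 0.346. Erg thus exceeded Fli1 in wt and ZnF1 and was below it in both ZnF4 libraries.

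Ets1 encodes a lymphoid Ets factor that cooperates with Pax5 at the Cd79a promoter. Its level was 145.8, 135.9 and 149.5 RPKM in wt, ZnF1 and ZnF4 of fraction B and 156.5, 100.1 and 159.1 in fraction C. Its lowest value was in ZnF1 fraction C, 1.56-fold below wt, the library with the lowest B-lineage sum. The second Ets1 transcript in the table was at 6.5 to 10.9 RPKM and was also lowest there. The log2 difference of ZnF1 from wt was -0.37 (SE 0.23, limma adjusted p = 0.571).

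Elf1 encodes a widely expressed Ets factor of lymphoid cells. Its level was 87.8, 103.3 and 94.1 RPKM in wt, ZnF1 and ZnF4 of fraction B and 78.0, 64.8 and 97.1 in fraction C. Genotypes overlapped, and the ZnF1 mutant held both the highest and the lowest value. Limma gave a log2 difference of 0.21 for ZnF4 against wt (SE 0.24, adjusted p = 0.675) and -0.02 for ZnF1 against wt (SE 0.24, adjusted p = 0.977). Under the B-lineage scaling the differences of Elf1 from wt took the opposite sign in all 4 mutant libraries (-0.30 to 0.22), and those of Ets1 in ZnF4 were -0.36 and -0.35. The ratio of Ets1 to Elf1 stayed between 1.32 and 2.01 in the 6 libraries.

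**Figure D4:**
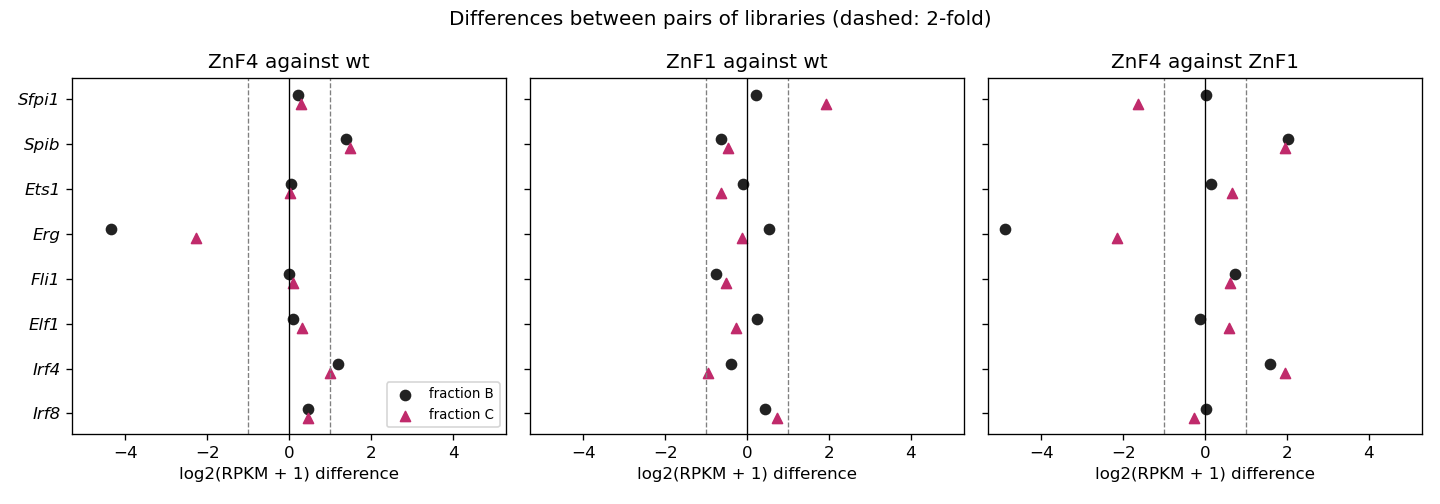
Difference in log2(RPKM + 1) between pairs of libraries for the 8 genes, mutant against wt and ZnF4 against ZnF1, in fractions B and C. Spib and Irf4 are higher and Erg is lower in ZnF4 than in ZnF1 in both fractions, and Sfpi1 differs from wt past 2-fold in ZnF1 fraction C.

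**Figure D5:**
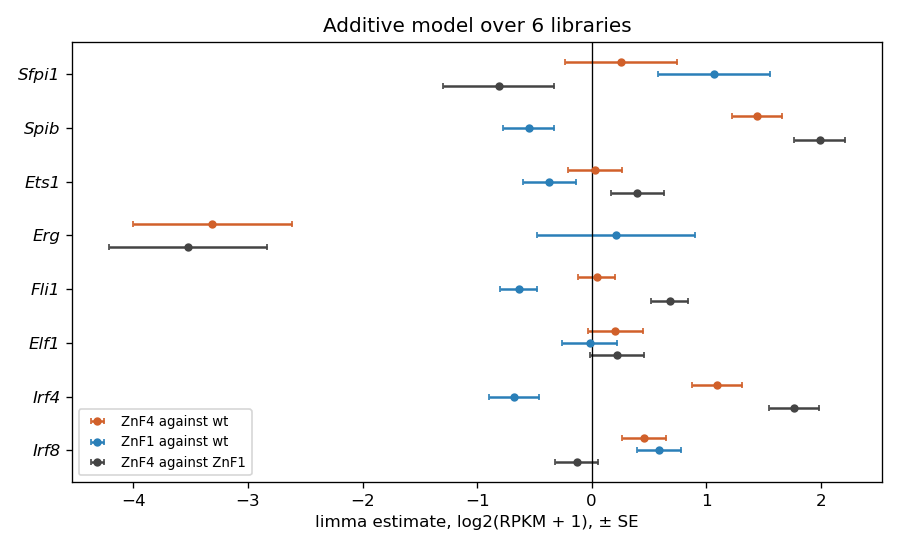
Limma estimates (log2, points) with their standard errors (bars) for the 8 genes over both fractions. Spib at 1.99 and Irf4 at 1.77 in ZnF4 against ZnF1 have adjusted p-values under 0.05, and the wide bars of Erg and Sfpi1 mark genes whose genotype differences were unequal between the fractions.

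Between fractions the 8 factors differed little in wt. There, C exceeded B by 2-fold or more in 0.338% of genes and was below it in 1.01%, and no member was among them. In the ZnF1 mutant 10.1% were higher and 4.16% lower, with Sfpi1 higher (2.87-fold) and Erg lower. In the ZnF4 mutant 2.76% were higher and 0.585% lower, with Erg higher. Limma called 0 of 10943 genes for C against B (511 at an unadjusted p under 0.05, 1.84% of all genes higher and 2.83% lower, with Spib among the lower).

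Of the 20 other Ets genes listed, 11 passed the minimum of 1 RPKM and 6 were at or below 0.1 RPKM in every library. None of the 11 was 2-fold from wt in the ZnF4 mutant in either fraction, and limma called 0 of them in any comparison. Among all genes, 3.7% were that far above wt and 9.81% that far below it in the fraction B library. For fraction C the shares were 3.55% and 6.12%. Limma called 0.0274% of all genes for each mutant against wt, 1.82% between the mutants and 0 for C against B. At such shares few or none of 11 genes would be called, so these counts do not set them apart. Ets2, a broadly expressed Ets factor induced by growth signals, was at 9.4, 1.9 and 5.7 RPKM in wt, ZnF1 and ZnF4 of fraction B, then at 6.3, 19.6 and 3.7 in fraction C. The ZnF1 value was thus below wt in fraction B and above it in fraction C, the library with the high myeloid sum. Etv6, a repressor needed by blood stem cells, was at 23.6, 27.7 and 13.8 in fraction B, then at 18.8, 27.2 and 14.4 in fraction C, lowest in both ZnF4 libraries (log2 -0.91 against ZnF1, limma adjusted p = 0.0828). Elf2, Elf4, Elk3, Elk4, Gabpa and Etv3 also had means of 5 RPKM or more. Elf2 was the most abundant of these 8 in ZnF4 fraction B at 53.1 RPKM, and Elk4 was at 33.6 there against 56.0 in wt.

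Of the 7 other IRF genes, 6 passed the minimum. Irf7, which is induced by interferon and drives interferon production in plasmacytoid dendritic cells, was at 17.7, 19.4 and 2.2 RPKM in wt, ZnF1 and ZnF4 of fraction B, then at 10.1, 62.6 and 2.9 in fraction C. Irf7 was at least 2-fold lower than wt in both ZnF4 libraries and 2-fold higher in ZnF1 fraction C, and between the mutants the log2 difference was -3.35 (limma adjusted p = 0.0733). Its lowest values were in the libraries with the least plasmacytoid dendritic markers. None of the other 5 was 2-fold from wt in any library: Irf1 was at 22.2 to 41.0 RPKM, Irf2 at 40.8 to 65.0, Irf3 at 20.6 to 46.5, Irf5 at 34.7 to 66.6 and Irf9 at 26.4 to 48.0.

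A list of 18 genes described as controlled by Ets, Spi or IRF factors in B-lineage cells was read beside the factors, of which 16 passed the minimum. In ZnF4 against wt 7 were at least 2-fold higher and 1 lower in each fraction, and the list's median log2 difference was 0.85 and 0.84 in fractions B and C, against -0.09 and -0.05 for all genes. In ZnF1 against wt 1 was higher and 1 lower in fraction B, and 4 were higher and 3 lower in fraction C. Limma called 0 of the 16 for either mutant against wt, and 0.0274% of all genes for each. At an unadjusted p under 0.05 it placed 9 of the list higher and 1 lower in ZnF4, and 2 higher and 3 lower in ZnF1. Over all genes it placed 7.9% higher and 9.74% lower in ZnF4, and 4.99% and 4.31% in ZnF1. For ZnF4 against ZnF1 limma called 1, Ikzf3 (Aiolos, a relative of Ikaros), with a log2 difference of 3.97 (SE 0.29, adjusted p = 0.0359). Of all genes, 1.82% were called there. Ikzf1, which encodes Ikaros, is on the list although it is the mutated gene, and Blnk and Cd79a are also among the B-lineage markers. The list was chosen with earlier results of these data known. Its medians and counts beside those of all genes therefore describe the listed genes only. They cannot test whether targets of Ets or IRF factors changed as a class.

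Of the target list, the genes at least 2-fold higher than wt in both fractions of the ZnF4 mutant were Fcgr2b, Il7r, Ikzf1, Ikzf3, Cd40 and Ciita. Of all 10943 genes, 2.59% were that far higher and 4.73% that far lower in both ZnF4 libraries. For the ZnF1 libraries these shares were 0.758% and 0.804%. Fcgr2b, the inhibitory Fc receptor of B cells, was at 17.0, 35.1 and 52.1 RPKM in wt, ZnF1 and ZnF4 of fraction B, then at 13.2, 41.6 and 49.1 in fraction C, at least 2-fold above wt in both mutants. Ciita, the master regulator of MHC class II genes, was at 4.5, 4.3 and 13.7 in fraction B, then at 4.0, 5.0 and 13.6 in fraction C. Il7r, the interleukin 7 receptor chain whose gene PU.1 is known to activate, was at 110.2, 125.6 and 316.6 in fraction B, then at 96.2, 51.3 and 287.5 in fraction C. For Ciita and Il7r the ZnF4 libraries were the high ones and the wt and ZnF1 libraries overlapped. Cd40, a costimulatory receptor, was 7.63-fold and 12.2-fold above wt in ZnF4. Grap2, a lymphocyte adaptor, was the 1 gene of the list at least 2-fold lower than wt in both ZnF4 libraries, at 3.0 against 7.8 RPKM in fraction B and 2.1 against 6.5 in fraction C. In both fractions of the ZnF1 mutant Ikzf3 was at least 2-fold lower than wt, by 4.88-fold and 2.85-fold.

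Among the 6239 genes whose mean reached 10 RPKM, those with the profile nearest to a member were found by the Euclidean distance between mean-centred log2(RPKM + 1) values over the 6 libraries. For Spib these were 1700021K19Rik (0.228), Siglecg (0.231) and Cmah (0.438). Siglecg, an inhibitory sialic acid receptor of B cells, was at 152.0, 107.4 and 399.3 RPKM in wt, ZnF1 and ZnF4 of fraction B, then at 110.2, 69.5 and 289.1 in fraction C. For Irf4 they were Fam3c (0.234), B3gnt5 (0.279) and Lrmp (0.348). For Sfpi1 they were Ranbp10 (0.193), Flna (0.201) and 1810058I24Rik (0.240). For Erg they were Ccdc135 (0.725), Steap4 (0.780) and Egfl7 (0.861), each farther than the third nearest gene of the other 3 members. Flna, an actin crosslinker, was at 313.5 RPKM in ZnF1 fraction C and at 73.8 to 110.0 elsewhere.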

How the data were processed

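Labels of genotype and stage gave the groups of the 6 libraries. The deposited unit is RPKM, computed by the authors for each RefSeq transcript, per the file headers, beside a transcript length column, and deposited rounded to 0.1. TopHat, bedtools and build mm9 are named per the submitters' processing notes. What each did, the use of strand and of shared reads: not given in the sources used here. Of 26532 entries, 1 without a gene name was left out. The table held 0 columns of other samples. Low values of short transcripts were whole reads, within the rounding error of 0.05 RPKM, in 41.1% to 49.2% of cases per library at the best scale found (33.4% to 34.9% by chance at that tolerance), so reads were not recovered, depth is unknown, and no interval or floor is given.

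Differences were taken on log2(RPKM + 1). limma 3.58.1 (R 4.3.3; lmFit, eBayes with trend) took all 6 libraries and added terms for fraction and genotype, which leaves 2 residual degrees of freedom, with Benjamini-Hochberg adjustment over 10943 genes and two-sided p-values. With 1 library per genotype and fraction, the fractions of a genotype stand in for its replicates. The p-values therefore set genotype differences against what the fractions do not share, which may be technical. They do not measure a spread between replicate libraries or animals. The fit was tested on simulated data with independent noise of equal size for every gene and the same genotype change in both fractions. That setting does not cover genotype differences that are unequal between fractions, as for Erg and Sfpi1 here. Named genes are the members, for members at least 2-fold apart the 3 genes nearest in profile, other Ets and IRF genes whose mean reached 5 RPKM, and targets 2-fold from wt in both fractions of a mutant. The members and lists were chosen with earlier results of these data known. Tables and plots were made with Python 3.11.15, pandas 2.3.3, numpy 2.4.6 and matplotlib 3.10.9.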

Additional observations from a re-analysis of the deposited data

Results flagged for a closer look

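Erg differed in the direction of its step between fractions by genotype. In C against B its log2(RPKM + 1) difference was 1.52 in the ZnF4 mutant, -0.55 in wt and -1.20 in the ZnF1 mutant. The difference between these steps was not tested, since each rests on 1 library per fraction. Under the B-lineage scaling the values were 1.59, -0.47 and -0.15. No other member had steps or genotype differences in opposite directions past the minimum set for this comparison.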

How the results depend on the processing

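No paired analysis was possible because the labels carry no replicate numbers and each genotype has 1 library per fraction. Other pseudocounts, filters and scalings and leaving out each library were tried. Differences of members between 2 libraries that were under 2-fold both ways changed sign in 22 cases under the B-lineage scaling and 7 under all-gene scaling. One changed sign and passed 2-fold: Irf8 in ZnF1, C against B, was -0.02 on the log2 scale and 1.03 under the B-lineage scaling. The calls of Spib and Irf4 in ZnF4 against ZnF1 passed in 6 of 13 settings each. Without ZnF4 fraction B the limma adjusted p was 0.525 and 0.480, without ZnF4 fraction C 0.399 and 0.375, without wt fraction B 0.120 and 0.0859, without wt fraction C 0.124 and 0.0868, with no filter 0.217 and 0.169, and with the 4 mutant libraries alone 0.125 and 0.0878. Erg in ZnF4 against wt ranged from 0.0120 to 0.953 and passed in 3 of 13. Sfpi1 in ZnF1 against wt was at log2 1.91 (limma adjusted p = 0.0059) without ZnF1 fraction B and 0.22 (0.396) without ZnF1 fraction C, over a range of 0.0059 to 1. Each such fit leaves 1 library in an arm, assumed to vary like the other groups, and 1 residual degree of freedom. Without ZnF1 fraction B it called 4116 of 10943 genes.

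Counts at least 2-fold apart moved under the B-lineage scaling to 703 from 468 for ZnF1 against wt in fraction B, to 1588 from 1058 for ZnF4 against wt in fraction C, to 3668 from 2359 for ZnF4 against ZnF1 in fraction C, and to 3820 from 1556 for C against B in ZnF1. The share of calls that were higher went from 27.4% to 9.73% for ZnF4 against wt in fraction B and from 36.7% to 14.0% in fraction C, from 48.3% to 9.82% and from 63.0% to 87.5% for ZnF1 against wt, from 34.4% to 7.42% for ZnF4 against ZnF1 in fraction C, and for C against B from 70.8% to 98.8% in ZnF1 and from 25.0% to 42.1% in wt. Scaling on all genes moved it from 82.5% to 58.1% for C against B in ZnF4, from 31.2% to 42.6% for ZnF4 against ZnF1 in fraction B, and from 70.8% to 81.5% for C against B in ZnF1. With a mean of at least 5 RPKM, where fewer genes are tested, the counts were 308 for ZnF1 against wt in fraction B, 688, 1426 and 1463 for ZnF4 against wt, ZnF1 against wt and ZnF4 against ZnF1 in fraction C, and 94 in wt and 942 in ZnF1 for C against B. With a pseudocount of 0.25 C against B gave 285 in wt (148 before) and 643 in ZnF4 (366).

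Limma counts for ZnF4 against wt were 5 with that pseudocount, 5 under all-gene scaling, 0 under B-lineage scaling (2523 at an unadjusted p under 0.05), 132 with no filter, 3494 with the 4 libraries alone and 0 to 3453 without 1 library. For ZnF1 against wt they were 0 under B-lineage scaling (741), 102 with no filter, 0 with 4 libraries (453) and 0 to 4116 without 1 library. For ZnF4 against ZnF1 they were 335 under all-gene scaling, 0 under B-lineage scaling (2313), 97 with no filter and 0 to 4109 without 1 library. For C against B they were 11 with no filter and 0 to 0 without 1 library. Beside fewer genes or samples, the cause was not tested. Of the members' fold values under alternatives, 250 kept direction and side of 2-fold, 5 came past 2-fold and 3 dropped below it. Depth is unknown, so its limit cannot be given.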
